A study of Arabidopsis thaliana with 27 samples.

Results

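In Arabidopsis seedlings grown for 2 weeks on salt, 163 genes lay below their control level on the 2 mildest NaCl doses and above it on the strongest, out of 21497 genes whose probe passed the scanner's test of lying well above background in each replicate of 1 or more groups (0.758%). They were chosen by that shape: the group mean had to lie at least 0.3 below the mean on ATS media at both 50 and 75 mM NaCl, and at least 0.3 above it at 125 mM NaCl, on the log2 scale of the normalised probe intensity. The differences at 50, 75 and 125 mM NaCl are therefore what chose the genes, and they are given as a description with no test. The series profiled whole seedlings, shoot and root together, of the Col-0 accession that were germinated and grown for 2 weeks in petri dishes. All groups shared Arabidopsis thaliana salt (ATS) medium, alone in the control and supplemented in the others with NaCl (4 doses from 50 to 125 mM, in steps of 25 mM) or with sorbitol (100, 150, 200 and 250 mM), of which each dose was paired by the study with the iso-osmolar NaCl dose of the same rank. Each of the 9 groups had 3 arrays, 1-colour Agilent arrays hybridised with Cy3-labelled RNA, so that the number of arrays limits the precision. The labels number the replicates and do not say whether they came from separate dishes, and p-values measure the spread between these arrays, which may be technical.

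Salt acts on a seedling through the osmotic pull of the medium and through the sodium and chloride ions that enter the plant, whereas sorbitol, a sugar alcohol, is used as an osmolyte without the ions. Both kinds of stress raise abscisic acid, the hormone that turns on many genes of dehydration tolerance. Many enzymes that Arabidopsis uses against microbes, against reactive molecules and for taking up iron are regulated at the transcript level, and several such families have members here.

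The labels were checked against genes known from osmotic stress. RD29A, a dehydration-responsive gene, averaged 12.96 on ATS media and lay between 14.38 and 15.59 in the 8 treatments, and COR15A, a chloroplast-protecting cold-regulated protein, averaged 10.41 on ATS media and between 13.54 and 15.55 in the treatments. P5CS1, which makes proline, went from 11.32 on ATS media to between 12.89 and 14.02, and RD29B was not well above background on ATS media and averaged between 6.29 and 11.79 in the treatments. Between 70.1% and 80.8% of the spots were well above background on the 27 arrays. The median level of 12 root genes fell with the NaCl dose, with a median difference from ATS media of -0.29 at 50 mM, -0.67 at 75 mM, -0.78 at 100 mM and -1.25 at 125 mM NaCl, and between -0.57 and 0.05 on sorbitol. That of 19 photosynthetic shoot genes stayed between -0.11 and -0.04 in all 8 treatments. The array medians of these shoot genes lay between 17.83 and 18.06, against 10.1 to 11.6 for the root genes. Whether signals that bright could show a fall was not tested. In whole seedlings, fewer root cells and less of a root transcript per cell cannot be told apart. None of these 31 tissue genes was a member, and the part of tissue proportions in the members' values was not tested.

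Over the 163 members the median difference from ATS media was -0.73 at 50 mM NaCl, -0.55 at 75 mM, -0.03 at 100 mM and 0.78 at 125 mM, beside 0.04, 0.02, -0.01 and -0.03 over all genes tested. The 100 mM dose was not used in the choice of genes, but it is set against the same ATS arrays. At 100 mM the members went both ways, with 78 of the 163 within 0.3 of ATS media, 53 at least 0.3 below it and 32 at least 0.3 above it. At that dose 135 of the 163 lay between their 75 and 125 mM means, 21 lay at or below the 75 mM mean and 7 at or above the 125 mM mean. In 104 members 50 mM gave the lowest of the 4 NaCl means. The rule put the 75 and 125 mM means on opposite sides of ATS media. A 100 mM mean between them, and a lowest mean at a mild dose, are thus favoured by the choice, and nothing is read from these counts. On sorbitol the medians of the members were -0.09, -0.30, -0.10 and 0.14 at 100, 150, 200 and 250 mM. Of the 163, 4 (2.45%) lay at least 0.3 below ATS media at both 100 and 150 mM sorbitol and at least 0.3 above it at 250 mM, against 26 of all genes tested (0.121%), a comparison that shares the ATS arrays with the choice of members.

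The single arrays separated as the means did in most members. All 3 arrays at 50 mM NaCl lay below all 3 on ATS media in 120 members, where 29.7% of all genes did so, all 3 at 75 mM in 125 members against 30.6%, and all 3 at 125 mM lay above the control arrays in 140 members against 37.9%. All 3 conditions held together in 114 members and in 2.89% of all genes. These shares follow from the way the members were chosen, and nothing is read from them. The other 49 members had at least 1 overlapping array at 1 or more of the 3 doses.

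The arrays were spread over 7 glass slides, and the layout matters for the members. Slide 1 held the first replicate of ATS media and of 50, 75 and 100 mM NaCl, slide 3 the other replicates of ATS media and 50 mM NaCl, and slide 4 those of 75 and 100 mM NaCl. Slide 2 held the first replicate of 125 mM NaCl and of 100, 150 and 200 mM sorbitol, slide 5 the other replicates of 125 mM NaCl and 100 mM sorbitol, slide 6 those of 150 and 200 mM sorbitol, and slide 7 all 3 arrays of 250 mM sorbitol. No slide held 125 mM NaCl together with ATS media, and for that difference slide and dose cannot be told apart. Sorbitol at 150 and 200 mM, which did not enter the choice of genes, had arrays of the same treatment on both slide 2 and slide 6. With the treatment kept as a term, 49 members were higher on slide 2 than on slide 6 (30.1%, against 13.6% of all genes) and 23 were lower (14.1%, against 20.2%), by limma's moderated test with Benjamini-Hochberg adjustment over all genes at an adjusted p under 0.01, the threshold of all calls here. Counting only differences of at least 1 on the log2 scale, 26 members were higher on slide 2 (16.0%, against 1.02% of all genes), and 0 members were lower, against 0.0372% of all genes. The 26 became 8, all of them among the 26, after normexp background correction and 23 to 27 when single arrays were left out, and the 23 lower members became 14 with normexp, 11 with each array scaled to its 75th percentile, 10 without the first array of 150 mM sorbitol and 15 without that of 200 mM.

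These 26 members, set apart by a limit of 1 that was chosen after their values were seen, include 3 of the 10 members whose means differed most between 125 mM and the average of 50 and 75 mM NaCl, an order in which faint probes with only a bound at the low doses also stand. PILS1, named for a family of auxin carriers of the endoplasmic reticulum, was 1 of the 3. Its arrays read 4.49, 2.16 and 4.71 on ATS media, 3.37, 2.74 and 2.96 at 50 mM NaCl, 2.92, 2.93 and 3.12 at 75 mM, 3.32, 2.78 and 1.98 at 100 mM and 7.55, 7.42 and 7.40 at 125 mM. On sorbitol they read 7.57, 7.34 and 7.17 at 100 mM, 7.18, 3.84 and 3.42 at 150 mM, 7.20, 3.23 and 3.36 at 200 mM and 7.38, 7.30 and 7.32 at 250 mM. The first replicates at 150 and 200 mM sorbitol, on slide 2, sat near the 125 mM NaCl arrays, and the other replicates of the same treatments, on slide 6, lay within the range of the control arrays. PILS1 was not well above background on any array of ATS media or of 50, 75 or 100 mM NaCl, so its level at 125 mM was at least 9.26-fold that at 50 mM and at least 5.51-fold that on ATS media. Slide 2 was higher than slide 6 by 3.73 ± 0.46 (SE, adjusted p = 3.5e-06). Within slide 2 its level at 125 mM NaCl differed from that at 100 mM sorbitol by -0.02 and within slide 5 by 0.15.

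**Figure D1:**
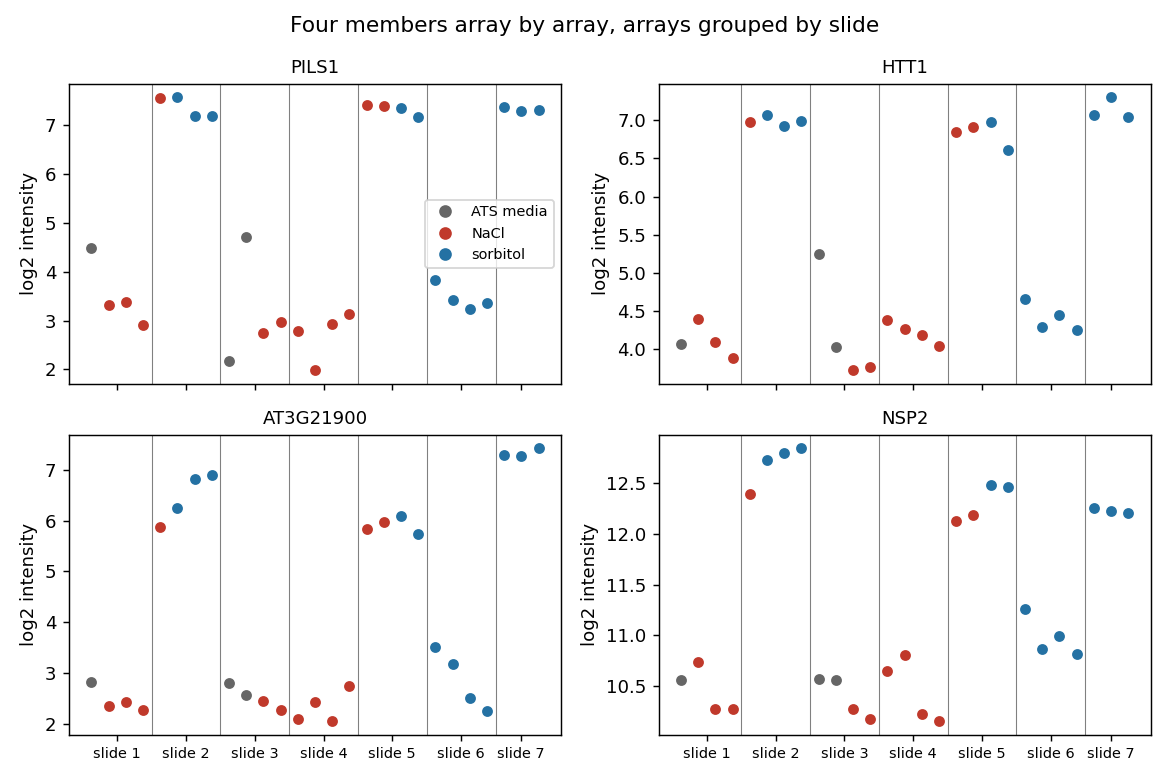
Log2 intensity (vertical axis) of PILS1, HTT1, AT3G21900 and NSP2 on all 27 arrays, which are ordered along the horizontal axis by slide, with vertical lines between slides and colours for ATS media, NaCl and sorbitol. The 11 arrays of slides 2, 5 and 7 lie above the 16 arrays of slides 1, 3, 4 and 6 in each of the 4 genes, whatever the treatment.

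AT3G21900, AT3G21920 and AT3G21930 follow each other among the genes tested, in the order of the RefSeq annotation, and all belonged to the 26. AT3G21900 read 2.82, 2.80 and 2.56 on ATS media, 5.87, 5.84 and 5.98 at 125 mM NaCl, 6.82, 3.51 and 3.18 at 150 mM sorbitol and 6.89, 2.51 and 2.26 at 200 mM sorbitol. AT3G21920 read 2.29, 3.29 and 2.56 on ATS media, 5.13, 5.25 and 5.27 at 125 mM NaCl and 6.24, 2.14 and 2.36 at 200 mM sorbitol, again with only the first of the 3 sorbitol arrays high. AT3G21930 read 3.40, 5.81 and 3.48 on ATS media and 5.65, 5.68 and 5.60 at 125 mM NaCl, and the second control array overlapped the 125 mM arrays. HTT1, a target of trans-acting small RNAs that takes part in heat tolerance, read 4.07, 5.24 and 4.02 on ATS media, 6.98, 6.84 and 6.91 at 125 mM NaCl and 6.92, 4.66 and 4.28 at 150 mM sorbitol, and slide 2 exceeded slide 6 by 2.55 ± 0.24 (SE, adjusted p = 9.5e-08). NSP2, a nitrile-specifier protein that steers the breakdown of glucosinolates, was bright on every array and read 10.56, 10.57 and 10.56 on ATS media, 12.40, 12.13 and 12.19 at 125 mM NaCl and 12.84, 10.99 and 10.82 at 200 mM sorbitol, with slide 2 above slide 6 by 1.83 ± 0.09 (SE, adjusted p = 2.6e-11). Of the 26, 9 were well above background in all 9 groups.

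The other named members among the 26 were FLS4, of the flavonol synthase family, DXPS1, of the deoxyxylulose phosphate synthase family that starts plastid isoprenoid synthesis, GGPS2, a geranylgeranyl diphosphate synthase, the glutathione transferase GSTF3, the phosphate transporter PHT1;8, PLAT3 and RSG1. GSTF3 read 11.66, 10.41 and 10.41 at 150 mM sorbitol and 11.48, 10.51 and 10.57 at 200 mM, with slide 2 above slide 6 by 1.1 ± 0.07 (SE, adjusted p = 2.8e-10). In 20 of the 26, and in 2 of the other members, all 11 arrays of slides 2, 5 and 7 lay above all 16 arrays of the other slides, which held for 2.21% of all genes. The reverse order held for 0 members and for 1.19% of all genes. At 50, 75 and 100 mM NaCl, none of which used those slides, the 26 had medians of -0.65, -0.53 and -0.52 relative to ATS media. On the groups that lay wholly on slides 2, 5 and 7, the medians were 1.26 at 125 mM NaCl, 1.33 at 100 mM sorbitol and 1.54 at 250 mM sorbitol. What set those slides apart was not tested. CYP71B29, with a slide difference of 0.99 ± 0.05 (SE, adjusted p = 5.1e-11), lay just under the limit. It was 1 of 6 other members called higher on slide 2 by between 0.5 and 1. Members with larger slide differences that missed the threshold also stayed outside the 26. Among them were AT1G66610 at 2.40 ± 0.82 (SE, adjusted p = 0.022) and ATA1 at 2.49 ± 1.04 (SE, adjusted p = 0.057). AT2G43795 went the other way, at -1.15 ± 1.22 (SE, adjusted p = 0.46).

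The remaining 137 members are those left after the 26 were taken out by this slide comparison, so their own values in it, with 23 higher and 23 lower on slide 2, follow from that choice. Both slides that carried 125 mM NaCl also carried 100 mM sorbitol, so the 2 treatments can be set against each other within a slide. On slide 2 the median of 125 mM NaCl minus 100 mM sorbitol was 1.03 over the 137 and -0.21 over the 26. On slide 5 it was 1.14 and -0.05. The difference was at least 0.3 on both slides in 121 of the 137 and in 3 of the 26. It was at most -0.3 on both slides in 0 of the 137 and in 5 of the 26. These values reuse the 125 mM arrays that chose the members and carry no test.

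**Figure D2:**
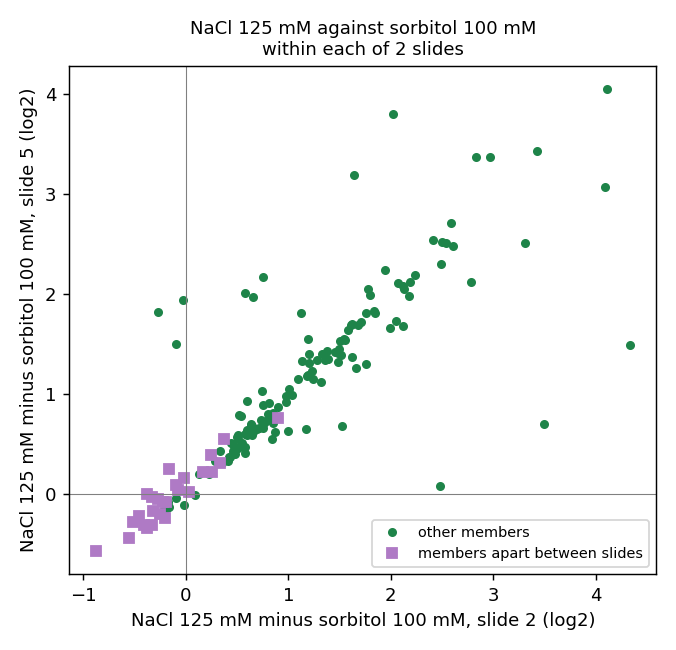
Each point is a member, with the log2 difference between 125 mM NaCl and 100 mM sorbitol on slide 2 (1 array against 1, horizontal axis) and on slide 5 (2 arrays against 2, vertical axis). Of the 137 green members, 121 lie at 0.3 or more on both axes, against 3 of the 26 purple members.

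The differences between doses can also be given within slides. The arrays at 50 and 75 mM NaCl and on ATS media are those that chose the members, so values below 0 at these doses, and a step up from 75 mM, follow from the choice and support nothing. On slide 1 the 137 had a median of -0.70 for 50 mM NaCl minus ATS media, and -0.82 on slide 3, with 118 and 135 of the 137 below 0. For 75 mM NaCl, slide 1 alone held both groups and gave a median of -0.56, with 129 below 0. From 75 to 100 mM NaCl the 137 differed by a median of 0.60 on slide 1 and 0.57 on slide 4, positive in 124 and 128 of them, beside -0.02 and -0.02 over all genes. The 26 had 0.15 and -0.02 for the same step. All 3 arrays at 100 mM lay above all 3 at 75 mM in 110 of the 137 and in 4 of the 26, against 29% of all genes, from which nothing is read for the same reason.

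**Figure D3:**
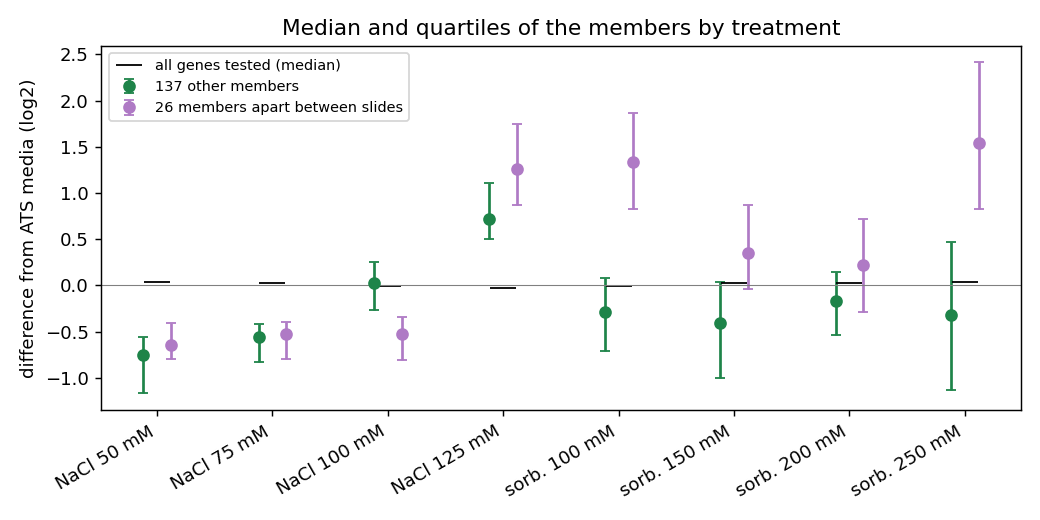
Difference from ATS media on the log2 scale (vertical axis) in the 8 treatments (horizontal axis), with the median (point) and quartiles (bars) over the 137 other members in green and over the 26 members that stood apart between slides in purple, and the median of all genes as a black dash. Both sets lie below 0 at 50 and 75 mM NaCl, the 137 are near 0 at 100 mM NaCl and below 0 in all 4 sorbitol groups, and the 26 are high at 125 mM NaCl and at 100 and 250 mM sorbitol.

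Of the 163 members, 84 are called here by a name that RefSeq lists and 79 by their locus tag. The 84 named members were grouped by known role after their values had been seen. The 79 others were given no role, so totals of a role cover named members only. Iron supply was the first group, with 4 members of the 33 measured genes of an iron homeostasis list (12.1%, where 0.758% of all genes were members). bHLH38 and bHLH39 are neighbouring genes for transcription factors that, with FIT, switch on iron uptake in roots. bHLH38 read 9.03, 9.16 and 9.15 on ATS media, 7.78, 7.88 and 7.85 at 50 mM NaCl, 7.88, 8.01 and 7.96 at 75 mM, 8.83, 8.82 and 8.80 at 100 mM and 10.38, 10.54 and 10.56 at 125 mM. On sorbitol it read 9.24, 9.20 and 9.26 at 100 mM, 5.93, 6.45 and 6.47 at 150 mM, 5.01, 5.40 and 5.09 at 200 mM and 6.06, 6.06 and 6.01 at 250 mM, so that every array at 150 mM or more lay below every NaCl and control array. Its partner bHLH39 read 9.09, 9.18 and 9.13 on ATS media, 7.92, 7.95 and 7.90 at 50 mM NaCl, 8.20, 8.16 and 8.21 at 75 mM, 9.06, 9.17 and 9.22 at 100 mM and 10.25, 10.37 and 10.32 at 125 mM. The sorbitol arrays of bHLH39 read 9.78, 9.86 and 9.88 at 100 mM, 7.13, 7.23 and 7.34 at 150 mM, 6.57, 6.77 and 6.71 at 200 mM and 7.02, 6.99 and 6.97 at 250 mM, with those at 100 mM above the control and the rest below every NaCl array.

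At iso-osmolar strength, 100 mM NaCl exceeded 200 mM sorbitol by 3.65 ± 0.11 (SE, adjusted p = 5e-17) for bHLH38 and by 2.47 ± 0.05 (SE, adjusted p = 3.3e-19) for bHLH39. From 100 to 250 mM sorbitol bHLH38 changed by -3.19 ± 0.11 (SE, adjusted p = 2.8e-16) and bHLH39 by -2.85 ± 0.05 (SE, adjusted p = 2.1e-20), and most of both falls lay in the step from 100 to 150 mM, at -2.95 ± 0.11 (SE, adjusted p = 3.1e-15) and -2.61 ± 0.05 (SE, adjusted p = 4.3e-19). F6'H1, the hydroxylase that makes the iron-mobilising coumarin scopoletin, read 11.14, 11.09 and 11.04 on ATS media, 9.98, 9.99 and 9.95 at 50 mM NaCl, 10.49, 10.46 and 10.46 at 75 mM, 10.99, 10.91 and 10.99 at 100 mM and 11.74, 11.75 and 11.80 at 125 mM. Its 125 mM arrays were above and its 50 and 75 mM arrays below the control with no overlap, and 100 mM NaCl exceeded 200 mM sorbitol by 0.74 ± 0.05 (SE, adjusted p = 4.3e-11). VTL1, a vacuolar iron transporter-like protein, averaged 7.80 ± 0.06 (SD, n = 3) on ATS media, 7.17 ± 0.01 at 50 mM NaCl and 8.15 ± 0.06 at 125 mM. Between 100 mM NaCl and 200 mM sorbitol VTL1 differed by -0.01 ± 0.04 (SE, adjusted p = 0.93). Over the whole iron list, 19 of the 33 genes were higher and 9 lower at 100 mM NaCl than at 200 mM sorbitol, beside 26.1% and 30.7% of all genes, and its median difference from ATS media was 0.18 at 50 mM, 0.09 at 75 mM and 0.51 at 125 mM NaCl. Root genes fell over the same NaCl doses, as given above, and the part of that fall was not tested.

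**Figure D4:**
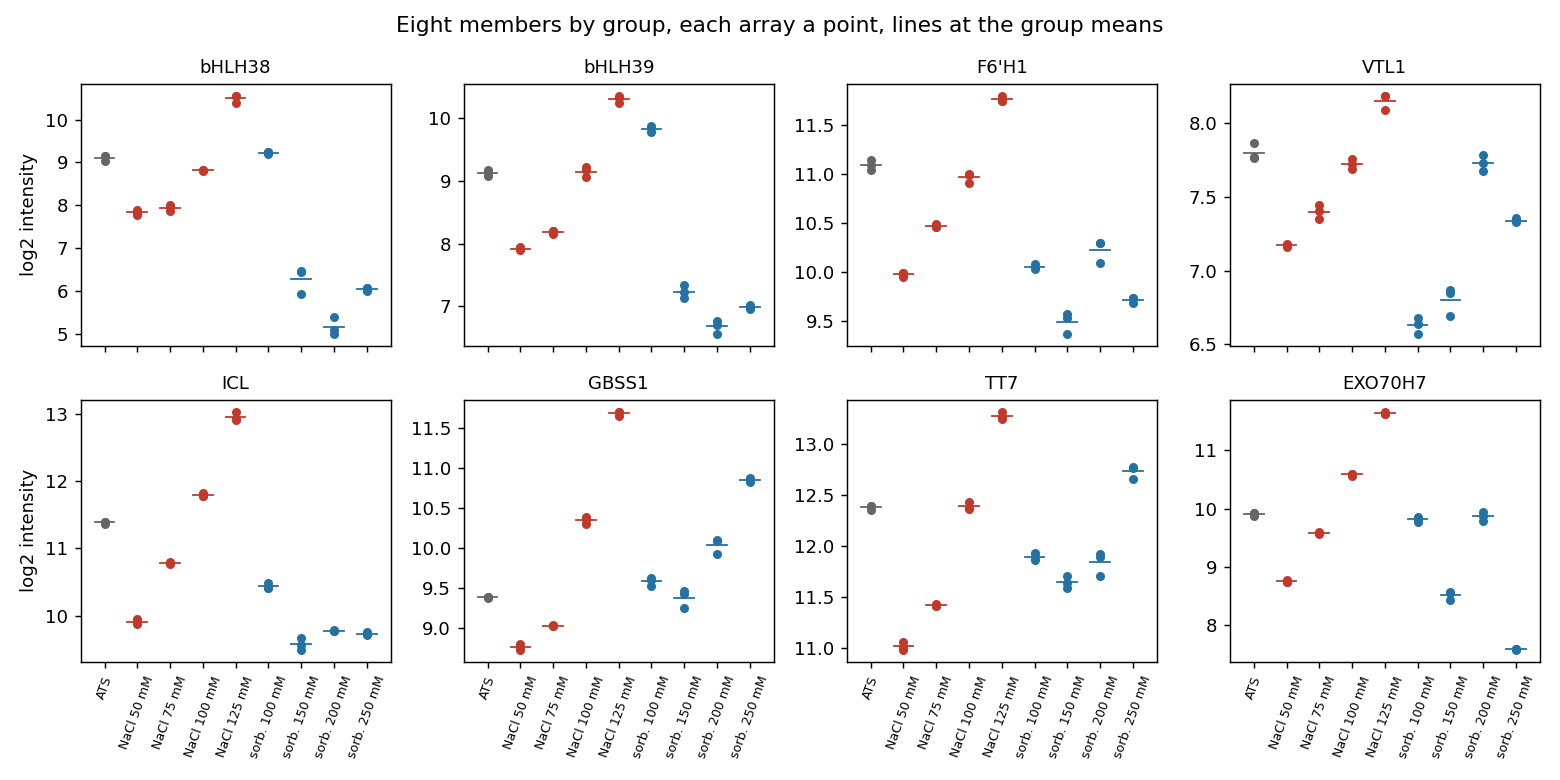
Log2 intensity (vertical axis) of bHLH38, bHLH39, F6'H1, VTL1, ICL, GBSS1, TT7 and EXO70H7 in the 9 groups (horizontal axis), each array a point and each line a group mean. In all 8 genes the arrays at 50 and 75 mM NaCl lie below those on ATS media and the arrays at 125 mM NaCl above them, while the sorbitol groups take different courses.

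Glutathione transferases, which join glutathione to reactive or foreign compounds, gave 6 members of 42 measured (14.3%), 1 of them GSTF3 of the 26. GSTF7, known from immune responses, read 9.82, 9.74 and 9.79 on ATS media, 7.54, 7.49 and 7.45 at 50 mM NaCl, 8.38, 8.34 and 8.29 at 75 mM, 8.88, 8.92 and 8.90 at 100 mM and 10.31, 10.28 and 10.28 at 125 mM. At 100 mM NaCl it had not come back to the control, and at 200 mM sorbitol its arrays stood at 10.20, 10.06 and 10.05, above all control arrays, so that 100 mM NaCl minus 200 mM sorbitol was -1.20 ± 0.04 (SE, adjusted p = 8e-16). GSTU25 read 10.97, 11.05 and 10.99 on ATS media, 10.19, 10.21 and 10.20 at 75 mM NaCl, its lowest group, and 11.61, 11.61 and 11.64 at 125 mM. It rose along the sorbitol doses, by 1.3 ± 0.03 (SE, adjusted p = 1e-19) from 100 to 250 mM. GSTU1 and GSTU10 moved less, with -0.66 and -0.79 at 50 mM NaCl and 0.65 and 0.56 at 125 mM relative to ATS media. On sorbitol GSTU28 read 7.98, 7.97 and 8.05 at 100 mM, 7.69, 7.75 and 7.66 at 150 mM, 8.14, 8.17 and 8.20 at 200 mM and 6.49, 6.45 and 6.50 at 250 mM, so that its 200 mM arrays lay above and its 250 mM arrays far below those at 100 mM, the latter by a difference of -1.52 ± 0.03 (SE, adjusted p = 7.4e-21). Of all 42 transferases, 26 were higher and 9 lower at 250 than at 100 mM sorbitol, beside 32% and 25.8% of all genes.

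Glycosyltransferases that attach sugars to small molecules gave 4 named members, of which UGT78D2 is given below with the flavonoid pathway. UGT76E12 read 2.36, 3.52 and 2.84 on ATS media, 2.55, 2.19 and 2.44 at 50 mM NaCl, 2.39, 2.17 and 2.60 at 75 mM, 6.30, 6.18 and 6.25 at 100 mM and 6.88, 6.86 and 6.76 at 125 mM, and was well above background only at 100 and 125 mM NaCl. Its level at 125 mM was at least 6.01-fold that at 50 mM and at least 3.78-fold that on ATS media. On 100 mM NaCl it was at least 4.82-fold (adjusted p = 5.8e-12) that on 200 mM sorbitol, where it read 3.11, 2.53 and 2.46. Here and below, the adjusted p beside a bound is that of the fitted difference and does not test the bound. UGT73C1, able to glucosylate cytokinins, averaged 7.61 ± 0.07 on ATS media, 6.72 ± 0.02 at 75 mM, 8.14 ± 0.06 at 100 mM and 9.20 ± 0.05 at 125 mM NaCl, and 100 mM NaCl exceeded 200 mM sorbitol by 1.60 ± 0.07 (SE, adjusted p = 2.1e-14). UGT84A3, which glucosylates hydroxycinnamic acids such as sinapate, exceeded its 200 mM sorbitol level at 100 mM NaCl by 1.09 ± 0.05 (SE, adjusted p = 2.3e-14).

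In the flavonoid pathway, TT7, the flavonoid 3′-hydroxylase that sets the B-ring pattern of quercetin and cyanidin, read 12.35, 12.40 and 12.40 on ATS media, 10.98, 11.06 and 11.01 at 50 mM NaCl, 11.43, 11.42 and 11.42 at 75 mM, 12.37, 12.43 and 12.38 at 100 mM and 13.26, 13.31 and 13.24 at 125 mM. The 75 mM arrays lay between those at 50 mM and the control, and 100 mM overlapped the control. UGT78D2, which puts glucose on flavonols and anthocyanidins, averaged 12.82 ± 0.08 on ATS media, 12.04 ± 0.04 at 50 mM, 12.28 ± 0.04 at 75 mM and 13.54 ± 0.05 at 125 mM NaCl. Both rose from 100 to 250 mM sorbitol, TT7 by 0.84 ± 0.04 (SE, adjusted p = 9.9e-13) and UGT78D2 by 0.72 ± 0.07 (SE, adjusted p = 2.2e-08). They were the 2 members of a list of 32 phenylpropanoid and anthocyanin genes, of which 17 were higher and 5 lower at 250 than at 100 mM sorbitol, where 32% and 25.8% of all genes were.

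CYP79B2 and CYP79B3, the cytochromes P450 that turn tryptophan into indole-3-acetaldoxime, the precursor of indole glucosinolates, camalexin and part of the plant's auxin, were both members. CYP79B2 read 14.30, 14.23 and 14.20 on ATS media, 13.74, 13.65 and 13.64 at 50 mM NaCl, 13.79, 13.75 and 13.70 at 75 mM, 14.29, 14.32 and 14.25 at 100 mM and 14.82, 14.77 and 14.62 at 125 mM. CYP79B3 read 13.17, 13.09 and 13.19 on ATS media, 12.73, 12.78 and 12.82 at 50 mM NaCl, 12.71, 12.72 and 12.72 at 75 mM, 13.52, 13.54 and 13.47 at 100 mM and 13.61, 13.63 and 13.61 at 125 mM. At 125 mM NaCl all arrays of both genes were above all control arrays, and at 50 and 75 mM all were below. The probe used for CYP79B2 was higher at 250 than at 100 mM sorbitol, by 0.71 ± 0.05 (SE, adjusted p = 2.7e-10), and 100 mM NaCl lay below 200 mM sorbitol for it, at -0.44 ± 0.05 (SE, adjusted p = 4.6e-07). A second bright probe of CYP79B2 gave -0.66, -0.57 and 0.09 at 50, 75 and 125 mM NaCl relative to ATS media, so that it lay near the control at 125 mM. CYP79B3 was also higher at 250 than at 100 mM sorbitol, by 0.31 ± 0.06 (SE, adjusted p = 0.00011). MEB1, a membrane protein of the endoplasmic reticulum bodies that store the myrosinases acting on glucosinolates, averaged 12.25 ± 0.03 on ATS media, 11.69 ± 0.05 at 50 mM and 12.96 ± 0.08 at 125 mM NaCl. The 2 P450s were the members among 31 measured glucosinolate genes (6.45%), of which 21 were higher and 6 lower at 250 than at 100 mM sorbitol, beside 32% and 25.8% of all genes.

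Sugar, starch and stored lipid gave 10 named members. ICL, isocitrate lyase of the glyoxylate cycle, which turns stored fat into sugar, read 11.40, 11.39 and 11.37 on ATS media, 9.95, 9.91 and 9.88 at 50 mM NaCl, 10.80, 10.76 and 10.79 at 75 mM, 11.82, 11.78 and 11.78 at 100 mM and 13.03, 12.93 and 12.91 at 125 mM. Each NaCl group was separate from every other. On sorbitol ICL averaged between 9.57 and 10.43, all below the control, and 100 mM NaCl exceeded 200 mM sorbitol by 2.01 ± 0.04 (SE, adjusted p = 2.3e-20). GBSS1, the granule-bound starch synthase that makes amylose, read 9.39, 9.38 and 9.38 on ATS media, 8.80, 8.76 and 8.72 at 50 mM NaCl, 9.02, 9.03 and 9.02 at 75 mM, 10.39, 10.29 and 10.35 at 100 mM and 11.69, 11.65 and 11.70 at 125 mM. It also rose on sorbitol, from 9.58 at 100 mM to 10.85 at 250 mM, by 1.27 ± 0.05 (SE, adjusted p = 2.7e-15). TMT1, a sugar carrier of the vacuole membrane, had differences of -0.58, -0.43, -0.41 and 0.31 relative to ATS media at the 4 NaCl doses.

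Proteins of seed oil bodies appeared as faint signals. CLO1, a caleosin of oil bodies, read 2.41, 3.64 and 2.66 on ATS media, 2.66, 2.52 and 2.28 at 50 mM NaCl, 2.14, 2.13 and 2.35 at 75 mM, 2.45, 2.17 and 2.23 at 100 mM and 5.41, 5.60 and 5.72 at 125 mM. It was well above background only at 125 mM NaCl and 200 mM sorbitol, where it read 4.47, 4.52 and 4.85, so the rise at 125 mM was at least 2.51-fold over 50 mM and 200 mM sorbitol was at least 1.4-fold (adjusted p = 2.8e-07) higher than 100 mM NaCl. OBAP1a, an oil body-associated protein, read 1.84, 1.85 and 3.99 on ATS media, 4.82, 5.27 and 5.15 at 125 mM NaCl, 1.83, 2.59 and 2.33 at 150 mM sorbitol, 5.86, 6.21 and 6.29 at 200 mM and 4.95, 5.04 and 4.80 at 250 mM. It was not well above background on ATS media, at 50, 75 or 100 mM NaCl or at 100 or 150 mM sorbitol, and 200 mM sorbitol was at least 3.98-fold (adjusted p = 1e-08) higher than 100 mM NaCl. HSD1, a steroleosin of oil bodies, read 4.07, 3.23 and 4.44 on ATS media, 3.31, 3.52 and 3.03 at 50 mM NaCl, 2.23, 3.03 and 2.62 at 75 mM, 3.14, 4.2 and 3.52 at 100 mM and 5.82, 6.05 and 5.97 at 125 mM, and on sorbitol 3.33, 3.85 and 3.58 at 100 mM, 6.17, 6.38 and 6.24 at 150 mM, 7.52, 7.36 and 7.34 at 200 mM and 7.99, 7.96 and 7.89 at 250 mM. Its arrays did not overlap between the sorbitol doses, and 250 mM was at least 13.7-fold (adjusted p = 6.5e-12) higher than 100 mM, where no array was well above background. With 1 of 3 arrays well above background at 100 mM NaCl, 100 mM NaCl minus 200 mM sorbitol was -3.79 ± 0.26 (SE, adjusted p = 7.1e-11) for it. In a list of 15 measured genes for seed storage and oil body proteins, which did not hold OBAP1a or HSD1, CLO1 was the member. Of the 15, 3 were higher and 10 lower at 100 mM NaCl than at 200 mM sorbitol, beside 26.1% and 30.7% of all genes. The list's median difference from ATS media was 2.43 at 200 mM and 0.17 at 250 mM sorbitol, so high values at 200 mM were not particular to the members. SUC7, of the sucrose carrier family, read 8.18, 8.33 and 8.22 on ATS media, 7.03, 6.93 and 6.95 at 50 mM and 10.06, 10.08 and 10.05 at 125 mM NaCl, and fell from 100 to 250 mM sorbitol, at -2.21 ± 0.14 (SE, adjusted p = 1.7e-11).

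Genes of immunity and the oxidative burst gave 7 named members. EFR, the receptor for the bacterial elongation factor Tu, read 8.31, 8.35 and 8.33 on ATS media, 6.98, 6.95 and 7.0 at 50 mM NaCl, 7.71, 7.73 and 7.64 at 75 mM, 8.54, 8.49 and 8.63 at 100 mM and 9.09, 9.02 and 9.05 at 125 mM. Its 100 mM arrays were already above the control, and 100 mM NaCl exceeded 200 mM sorbitol by 1.44 ± 0.07 (SE, adjusted p = 4.8e-13). PRX71, a cell wall peroxidase, read 13.16, 13.14 and 13.13 on ATS media, 12.04, 11.98 and 11.99 at 50 mM NaCl, 12.50, 12.48 and 12.44 at 75 mM, 13.37, 13.34 and 13.33 at 100 mM and 14.56, 14.52 and 14.53 at 125 mM. On sorbitol it rose as well, from 12.39 at 100 mM to 13.65 at 250 mM, by 1.26 ± 0.03 (SE, adjusted p = 2.4e-19). PROPEP2, the precursor of a peptide that signals damage, averaged 5.67 at 125 mM NaCl, the only group with every array well above background. It was not well above background at 50 mM NaCl or 250 mM sorbitol. Its level at 200 mM sorbitol was at least 1.19-fold that at 250 mM (adjusted p of the fitted difference = 3.7e-08). MLO6, of the mildew resistance locus o family, had differences of -0.35 at 50 mM and 0.69 at 125 mM NaCl from ATS media. RbohJ, an NADPH oxidase known from pollen tubes, read 6.41, 6.69 and 2.47 on ATS media and 6.44, 5.55 and 5.89 at 125 mM NaCl, so that its control arrays spread more widely than the difference. None of 31 listed salicylic acid and immunity genes was a member.

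Among the named members, transcription factors outside iron supply numbered 9, with 3 further regulators of light and clock responses. MYB15, which activates genes of lignin synthesis and takes part in the cold response, read 8.33, 8.40 and 8.31 on ATS media, 7.83, 7.85 and 7.68 at 50 mM NaCl, 7.75, 7.78 and 7.77 at 75 mM, 9.43, 9.59 and 9.48 at 100 mM and 9.83, 9.81 and 9.77 at 125 mM. Most of its rise from 75 mM had occurred by 100 mM, which exceeded 200 mM sorbitol by 1.03 ± 0.05 (SE, adjusted p = 9.1e-14), whereas its sorbitol means stayed between 8.38 and 8.49. ZAT12, a zinc finger protein of the reactive oxygen and cold responses, averaged 12.12 ± 0.04 on ATS media, 11.71 ± 0.05 at 75 mM, 12.69 ± 0.01 at 100 mM and 12.60 ± 0.04 at 125 mM NaCl, and 100 mM NaCl exceeded 200 mM sorbitol by 1.09 ± 0.04 (SE, adjusted p = 4.6e-16). RAV2, a repressor of flowering, and TCP14, a growth regulator, fell from 100 to 250 mM sorbitol, at -1.54 ± 0.03 (SE, adjusted p = 6.7e-20) and -2.06 ± 0.14 (SE, adjusted p = 7.1e-11). RAV2 read 13.12, 13.12 and 13.15 on ATS media, 11.77, 11.80 and 11.85 at 50 mM NaCl, 12.23, 12.22 and 12.22 at 75 mM, 12.56, 12.63 and 12.56 at 100 mM and 13.44, 13.41 and 13.47 at 125 mM.

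BBX21, a promoter of light-driven seedling development, LNK2, a co-activator of the circadian clock, and RPT2, a signal carrier of phototropism, all fell from 100 to 250 mM sorbitol, at -1.0 ± 0.06 (SE, adjusted p = 1.3e-11), -1.42 ± 0.04 (SE, adjusted p = 6.6e-18) and -0.59 ± 0.05 (SE, adjusted p = 3.2e-10). LNK2 averaged 9.46 ± 0.04 on ATS media, 8.44 ± 0.02 at 50 mM, 8.52 ± 0.06 at 75 mM, 9.03 ± 0.0038 at 100 mM and 9.84 ± 0.03 at 125 mM NaCl. LNK2 was the member among 26 measured clock genes. On every sorbitol dose its mean was below the control, with differences of -0.75, -1.83, -1.21 and -2.16.

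Beyond these groups, PILS5, an auxin carrier of the endoplasmic reticulum, averaged 11.34 ± 0.06 on ATS media, 10.83 ± 0.03 at 50 mM, 10.73 ± 0.05 at 75 mM, 11.74 ± 0.01 at 100 mM and 12.61 ± 0.01 at 125 mM NaCl. It rose by 1.02 ± 0.03 (SE, adjusted p = 2.3e-16) from 100 to 150 mM sorbitol. ARR7, a type-A response regulator that dampens cytokinin signalling, averaged 12.11 ± 0.02 on ATS media, 11.46 ± 0.04 at 50 mM and 12.90 ± 0.08 at 125 mM NaCl. EXO70H7, of the exocyst subunit family that tethers secretory vesicles, read 9.92, 9.92 and 9.88 on ATS media, 8.77, 8.74 and 8.74 at 50 mM NaCl, 9.58, 9.55 and 9.59 at 75 mM, 10.60, 10.60 and 10.56 at 100 mM and 11.62, 11.63 and 11.66 at 125 mM. On sorbitol it averaged 9.82, 8.51, 9.86 and 7.58 at 100, 150, 200 and 250 mM, so that it went down, up and down again between neighbouring doses, by -1.31 ± 0.04 (SE, adjusted p = 3.4e-17), 1.35 ± 0.04 (SE, adjusted p = 3.2e-17) and -2.29 ± 0.04 (SE, adjusted p = 1.8e-21). DJC66, a J-domain co-chaperone, took the same course, at -1.26 ± 0.05 (SE, adjusted p = 3.7e-15), 1.46 ± 0.05 (SE, adjusted p = 6.2e-16) and -2.46 ± 0.05 (SE, adjusted p = 2.9e-20). AOX1A, the alternative oxidase of mitochondria, had differences from ATS media of -0.39, -0.32 and 0.31 at 50, 75 and 125 mM NaCl, and its 2 further probes gave 0.16 and -0.04 at 125 mM.

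Several members named for their rise are called here by their locus tag, and no role was assigned to them. Among the members with every array at 50, 75 and 125 mM NaCl well above background, AT5G37990 had the largest rise from the average of 50 and 75 mM to 125 mM, 3.77 on the log2 scale, followed by AT1G14120 with 2.88 and GBSS1 with 2.78. AT5G37990 read 9.48, 9.50 and 9.40 on ATS media, 9.12, 9.03 and 9.00 at 50 mM NaCl, 8.11, 8.15 and 8.02 at 75 mM, 10.48, 10.32 and 10.46 at 100 mM and 12.38, 12.35 and 12.27 at 125 mM, and on sorbitol it read 10.26, 10.22 and 10.30 at 100 mM, 12.34, 11.99 and 11.86 at 150 mM, 11.53, 11.04 and 10.95 at 200 mM and 11.85, 11.85 and 11.82 at 250 mM, so that its 75 mM NaCl arrays were its lowest and its highest 150 mM sorbitol array overlapped those at 125 mM NaCl. That 150 mM sorbitol array lay on slide 2, and for this gene slide 2 exceeded slide 6 by 0.47 ± 0.05 (SE, adjusted p = 9.2e-07). AT5G37990 rose from 100 to 250 mM sorbitol by 1.58 ± 0.11 (SE, adjusted p = 9e-11). AT3G50610 read 3.13, 4.97 and 2.07 on ATS media and 6.51, 6.39 and 6.32 at 125 mM NaCl, and was not well above background on ATS media or at 50 or 75 mM NaCl, which put 125 mM at least 4.47-fold above 50 mM. CSLG2, a cellulose synthase-like protein, averaged 5.80 ± 0.12 on ATS media, 4.36 ± 0.39 at 50 mM and 7.81 ± 0.07 at 125 mM NaCl, with 2 of its 3 arrays at 50 mM well above background. AT2G14378 read 2.29, 6.71 and 6.53 on ATS media, 2.35, 2.14 and 2.21 at 50 mM NaCl, 2.25, 2.21 and 2.26 at 75 mM, 5.75, 5.80 and 5.78 at 100 mM and 6.20, 5.15 and 5.28 at 125 mM. Its first control array lay with the 50 and 75 mM arrays and the other control arrays lay above all 3 arrays at 125 mM NaCl.

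Among carriers, PHT3;2, a phosphate carrier of mitochondria, read 7.36, 7.25 and 7.24 on ATS media, 6.13, 5.99 and 6.02 at 50 mM NaCl, 6.47, 6.31 and 6.39 at 75 mM, 7.08, 7.12 and 7.06 at 100 mM and 7.87, 7.80 and 7.79 at 125 mM. Its 100 mM arrays lay between those at 75 mM and the control, and from 100 to 250 mM sorbitol it rose by 1.87 ± 0.07 (SE, adjusted p = 7.8e-16). ABCG2, an ABC transporter needed for suberin barriers, averaged 10.63 ± 0.05 on ATS media, 9.71 ± 0.07 at 50 mM and 11.13 ± 0.07 at 125 mM NaCl, and fell from 100 to 250 mM sorbitol, at -1.37 ± 0.07 (SE, adjusted p = 1.3e-12). GPAT7, a glycerol-3-phosphate acyltransferase, had differences from ATS media of -0.58, -0.31, 0.17 and 0.49 at the 4 NaCl doses, and 100 mM NaCl exceeded 200 mM sorbitol by 0.76 ± 0.05 (SE, adjusted p = 6.6e-11). CML39, a calmodulin-like protein, was 1 of the 7 members with a higher mean at 100 than at 125 mM NaCl and read 6.58, 6.60 and 6.54 at 75 mM, 8.49, 8.53 and 8.46 at 100 mM and 8.15, 8.21 and 8.18 at 125 mM. HIPP25, of the heavy metal-associated isoprenylated plant proteins, averaged 11.84 ± 0.05 on ATS media and fell from 100 to 250 mM sorbitol, at -1.66 ± 0.05 (SE, adjusted p = 2.9e-16).

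Outside the families above, members were spread thinly over the gene lists. Of 49 lists of pathways and families, 17 held a member and 4 held at least 3, namely iron homeostasis, glutathione transferases, 3 of 49 UDP-glycosyltransferases (6.12%) and 5 of 197 cytochromes P450 (2.54%). The list of UDP-glycosyltransferases did not hold UGT84A3. At 250 against 100 mM sorbitol 28 glycosyltransferases were higher and 4 lower, and 90 P450s were higher and 36 lower, beside 32% and 25.8% of all genes. None of 28 genes of abscisic acid and dehydration, 35 of jasmonate, 23 of ethylene, 45 of sodium and potassium transport, 59 WRKY factors and 48 heat shock proteins and chaperones was a member. In all, 29 of the 163 members stood in any list, and these counts are descriptions, since both the members and the lists were chosen with results of these data known.

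The comparison of 100 mM NaCl with its iso-osmolar 200 mM sorbitol shares no array with the choice of the members. At an adjusted p under 0.01, 51 members were higher on NaCl (31.3%, against 26.1% of all genes) and 28 were higher on sorbitol (17.2%, against 30.7%), 79 in either direction against 56.8% of all genes, with a median of 0.05 beside -0.02. All 51 that were higher on NaCl came from the 137. The 26 were set apart with the same 200 mM sorbitol arrays, so nothing is read from this. Among the 108 members with every array of both groups well above background, the largest differences toward NaCl were those of bHLH38, bHLH39, AT2G29370, at 2.23 ± 0.07 (SE, adjusted p = 1.8e-16), and ICL. Faint members higher on NaCl have only bounds, such as UGT76E12, given above, AT2G14378, at least 3.48-fold (adjusted p = 7.3e-05) higher, and AT5G45910, at least 2.8-fold (adjusted p = 2.4e-09) higher. AT5G45910 read 5.51, 5.57 and 5.31 at 100 mM NaCl and 2.48, 2.88 and 1.86 at 200 mM sorbitol, where no array of either gene was well above background. On the sorbitol side the largest among the 108 were those of GSTF3, 1 of the 26, at -2.19 ± 0.24 (SE, adjusted p = 9.1e-08), of GSTF7, given above, and of AT5G26260, at -1.20 ± 0.05 (SE, adjusted p = 4e-14). The oil body genes HSD1, OBAP1a and CLO1, given above, were faint at 100 mM NaCl. AT5G45690 read 2.04, 2.29 and 2.04 at 100 mM NaCl and 6.12, 6.09 and 5.88 at 200 mM sorbitol, the only group in which all its arrays were well above background, so that it entered the tested genes through the group in which it was high and no test of it is given, although it is counted among the 28. AT3G21930 is 1 of the 26, was at least 1.26-fold (adjusted p = 0.0052) higher on sorbitol, and lost the call when any 1 of the 3 NaCl arrays or the first sorbitol array, on slide 2, was left out. Without that sorbitol array the adjusted p was 0.054. No slide held both groups, and slide and medium cannot be told apart. With the slide as a random block, 44 members were higher on NaCl and 30 on sorbitol.

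The strongest sorbitol dose set against the mildest uses no array of the choice either, and here the members were called in shares near those of all genes. From 100 to 250 mM sorbitol 47 rose (28.8%, against 32% of all genes) and 44 fell (27.0%, against 25.8%), 91 in either direction against 57.8%, with a median of 0.10 beside 0.04. Among the 117 members with every array of both groups well above background, AT3G28580 and AT5G38900 rose most. AT3G28580 read 7.40, 7.40 and 7.45 at 100 mM and 9.78, 9.80 and 9.75 at 250 mM, a difference of 2.36 ± 0.06 (SE, adjusted p = 2.4e-18). AT5G38900 read 7.47, 7.50 and 7.65 and 9.40, 9.49 and 9.42, a difference of 1.90 ± 0.05 (SE, adjusted p = 1.2e-17). AT3G50610 was at least 1.35-fold (adjusted p = 9.7e-05) higher at 250 mM than at 100 mM, where no array of it was well above background, and its adjusted p was 0.021 with the slide as a random block. OBAP1a, also not above background at 100 mM, was at least 1.7-fold (adjusted p = 4.3e-07) higher at 250 mM. bHLH38, bHLH39, AT2G44940 and DJC66 fell most among the 117. XIF, a class XI myosin, read 6.12, 6.27 and 6.31 at 100 mM and 3.48, 3.60 and 3.20 at 250 mM, where no array was well above background, so that 100 mM was at least 3.81-fold (adjusted p = 1.3e-13) higher. AT2G44940 read 10.89, 10.88 and 10.85 and 8.49, 8.50 and 8.64, a difference of -2.33 ± 0.03 (SE, adjusted p = 6.7e-22). All arrays of 250 mM lay on slide 7 and those of 100 mM on slides 2 and 5, and slide and dose cannot be told apart here. With the slide as a random block 44 rose and 40 fell.

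**Figure D5:**
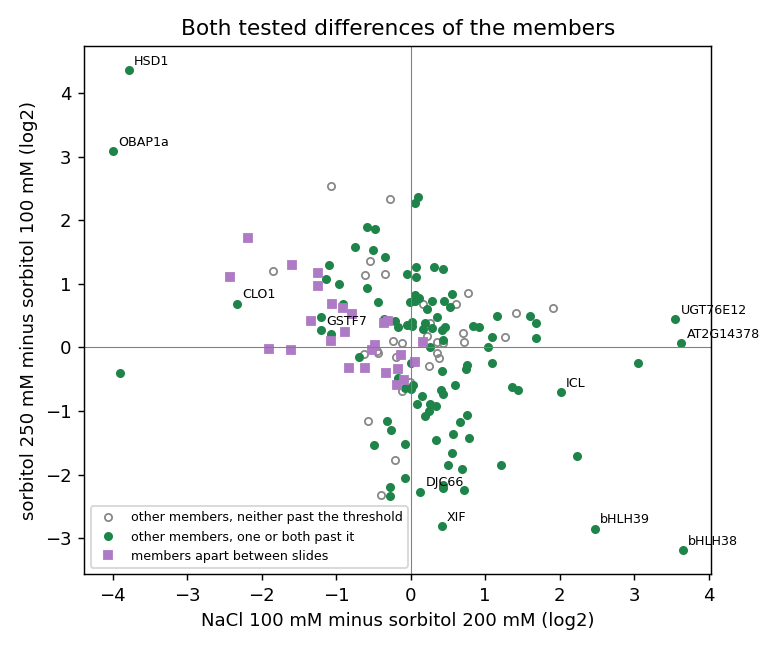
Each point is a member, with the difference between 100 mM NaCl and 200 mM sorbitol (horizontal axis, log2) and the difference between 250 and 100 mM sorbitol (vertical axis, log2), filled green where at least 1 of the 2 passed the threshold and purple for the 26 members that stood apart between slides. bHLH38 and bHLH39 lie at the lower right, UGT76E12 and AT2G14378 at the far right near 0 on the vertical axis, and HSD1 and OBAP1a at the upper left. UGT76E12, AT2G14378, HSD1 and OBAP1a had groups with no array above background, so their places are those of fitted values and not measured folds.

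Between neighbouring sorbitol doses the members did not move in 1 direction. From 100 to 150 mM 31 rose (19.0%, against 25.4% of all genes) and 53 fell (32.5%, against 18.5%), and 5 of the 53 were among the 26. From 150 to 200 mM 48 rose (29.4%, against 17.2%) and 18 fell (11%, against 19.4%). From 200 to 250 mM 53 rose (32.5%, against 27%) and 37 fell (22.7%, against 20.9%), and 12 of the 53 were among the 26. The 26 were set apart with arrays of 150 and 200 mM sorbitol, which these steps reuse, so nothing is read from their shares. With the slide as a fixed term, which the shared slides allow for the first 2 steps, the counts were 28 rising and 44 falling for the first and 47 and 24 for the second.

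Many members were faint. 100 of the 163 were well above background in all 9 groups, and 160 at 125 mM NaCl against 104 on ATS media, 113 at 75 mM and 114 at 100 mM NaCl, so part of the set passed the filter through the dose at which it was high. For 21 members a single group let them pass, 125 mM NaCl for 18, 250 mM sorbitol for MYB3R2 and AT1G19060 and 200 mM sorbitol for AT5G45690. In the sorbitol groups the number lay between 116 and 130. No control array was well above background in 28. In 22 members the 3 control arrays had an SD over 1, larger than the median change at any NaCl dose. RbohJ was 1 of these. ATA1 read 5.78, 3.07 and 5.00 and MYB3R2 5.71, 7.27 and 2.26 on ATS media, and these control arrays overlapped those at 50, 75 and 125 mM NaCl. Over the 91 of the 137 that were well above background in all 9 groups the median differences from ATS media were -0.71, -0.51, 0.03 and 0.65 at the 4 NaCl doses.

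The thresholds cut through a continuous range. Just inside them, AZF3, a zinc finger repressor, had a difference of 0.30 at 125 mM NaCl, AT1G77885 had 0.31 and TMT1 0.31. Just outside, CYP72A9 had -0.30 at 50 mM NaCl with 1.61 at 125 mM, AT2G32020 had 0.30 at 125 mM, and THA1 had -0.30 at 75 mM with 1.25 at 125 mM, each short of the limit by 0.0011 or less. The opposite shape, at least 0.3 above ATS media at 50 and 75 mM NaCl and at least 0.3 below at 125 mM, was met by 128 genes. Of the 1821 genes that were at least 0.3 below ATS media at both 50 and 75 mM, 1412 were also at least 0.3 below it at 125 mM.

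Other probes of the same genes bear on single members. 42 members had 53 further probes, and 46 of these, for 36 members, were well above background in some group. Of the 46, 34 lay below ATS media at 50 and 75 mM NaCl and above it at 125 mM, and 28 met the full rule. The further probe of ICL that was well above background gave -1.46, -0.68 and 1.51 at 50, 75 and 125 mM NaCl, and both further probes of TT7 met the rule. At 125 mM NaCl 6 of the 46, for 5 members, lay below ATS media, against the sign of the probes used, with -0.72 and -0.26 for FLS4, -0.57 for AT3G60960, -0.30 for AT2G16890, -0.07 for AT5G39580 and -0.04 for AOX1A. A further faint probe of HTT1 lay 1.91 and 0.75 above ATS media at 50 and 75 mM NaCl, and 1 of DSI-1VOC 0.73 and 0.36 above it. Families with near-identical sequences, such as GSTF7, SUC7 and HSD1 with their closest relatives, may share signal on 1 probe, which was not tested.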

How the data were processed

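RNA of whole Arabidopsis seedlings was hybridised to 27 1-colour arrays, 3 for each of 9 groups. The authors deposited the spot intensity of each array, read by Agilent Feature Extraction 10.7 according to the submitters' processing notes, with flags for spots well above background or outlying. They also deposited a table of quantile-normalised intensity, which an own quantile normalisation of the processed signals matched within 0.173%. Here log2 was taken of the deposited table, flagged outlier spots (0.0448% of values) were masked for the tests, and each of 25371 genes with a RefSeq locus tag was represented by its probe with the highest mean over the 27 arrays. The 21497 genes kept had that probe flagged well above background in every replicate of 1 or more groups. No deposited column was left without a sample, and the authors' own comparisons were not used.

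Groups were compared with limma 3.58.1 in R 4.3.3 (statmod 1.5.0), with 9 group means fitted to all arrays, two-sided moderated tests and Benjamini-Hochberg adjustment over all 21497 genes, called at an adjusted p under 0.01. This fit takes the arrays as independent, whereas with the slide as a random block arrays of 1 slide had a consensus correlation of 0.52. The p-values given for single genes do not account for that correlation unless the slide is named as a block. The slide comparison used the arrays of 150 and 200 mM sorbitol with the treatment as a term. Tests were run only on contrasts that share no array with the choice of members. Where no array of a group was well above background, the fold is a lower bound against the higher of the dim signal and the lowest signal well above background on each array. The adjusted p printed beside such a bound is that of the fitted difference, which includes the dim values, and does not test the bound. Tested on simulated data with 21497 genes, the fit for 100 mM NaCl against 200 mM sorbitol found 94.62% of 93 genes changed by 0.5 and 93.46% of 107 changed by 1. The simulated arrays were independent and had no slide effect, so these shares do not describe how the fit behaves where slide and group coincide.

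The members, gene lists, role groups and slide limit were chosen with earlier results of these data known. Genes were named by rule: the 10 members with the largest rise to 125 mM NaCl, the 5 largest called fitted differences in each direction of 2 tested comparisons (faint probes included, for which the order is not one of measured folds, so the order in the text is over members well above background in both groups), and members of lists with at least 3 members. Other members named were chosen by role after their values were seen. Alternatives were the array scaling, normexp background correction (on the median signal, offset 50), the probe rule, the filter, outlier spots, leaving out arrays, the replicate number and the slide as blocks, and other thresholds. Promoter sequences were not used here. Tables and figures were made with Python 3.11.15, pandas 2.3.3, numpy 2.4.6 and matplotlib 3.10.9.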

Additional observations from a re-analysis of the deposited data

How the results depend on the processing

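The number of members was 163 with an own quantile normalisation of the processed signals (all 163 shared), 165 with the mean of all probes (150 shared), 192 with no filter on dim probes, and 241 with each array scaled to its 75th percentile (156 shared). It was 65 after normexp background correction (61 shared), which with its offset of 50 draws dim values together, and 101 when all 4 groups of the rule had to be well above background. Thresholds of 0.2 and 0.5 gave 313 and 68. Leaving out single arrays gave 156 to 174 members, and without 1 control array 133 to 146 of the 163 were kept. Normexp left 8 of the 26 members that were higher by at least 1 on slide 2, and single arrays left out gave 23 to 27. The count of members lower on slide 2 than on slide 6, 23, became 11 with the 75th percentile, 14 with normexp, and 10 to 22 with single arrays left out, 10 without the first array of 150 mM sorbitol and 15 without that of 200 mM. The cause was not tested.

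The replicate number as a block gave 55 members higher and 29 lower for 100 mM NaCl against 200 mM sorbitol, 47 and 45 for 250 against 100 mM sorbitol, and 31 and 55, 50 and 19, and 55 and 38 for the 3 sorbitol steps. The labels name nothing that a replicate number shares, and the correlations of same-numbered deviations ran from -0.11 to 0.50, with medians between 0.014 and 0.050, so the number was not taken as a pairing. The first replicates of 8 groups did share slides 1 and 2, 4 groups on each, and the slide was fitted as a block of its own. Without both slide 2 arrays of sorbitol, 75 members fell from 100 to 150 mM and 73 rose from 200 to 250 mM. The slide as a fixed block could not be fitted where no slide held both groups. From 150 against 100 mM sorbitol, AT3G21930 turned to 0.73 with the slide as a fixed block, GSTF3 to -0.23 without both slide 2 arrays, and DSI-1VOC to 2.21 with the 75th percentile and 0.15 with normexp. DSI-1VOC also turned to 3.57 and 0.32 for 250 against 100 mM, and PDLP8 to -0.38 for 250 against 200 mM with the mean of its probes. The cause of these turns was not tested. The 3 arrays a group limit the precision, and faint members have only bounds.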
